A study of Bos taurus with 12 samples.

Results

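The CpGs described here had methylation that differed widely between the cultures of 6 animals at 1 age and hardly at all between the cultures of the same animals at the other age. They were taken from reduced representation bisulfite sequencing (RRBS), which cuts DNA with restriction enzymes and reads the methylation of CpG-rich fragments. The 12 cultures were untreated primary dermal fibroblasts at passage 6, grown from the skin of 6 Holstein cows. Each cow gave a young culture when it was 5 months old and an old culture when it was 16 months old. Young cultures carry the letter A and old cultures the letter B after the number of the animal, so that 1A and 1B are from the same cow. The animals had been picked by the study for a middling cytokine response of their fibroblasts, and there was 1 culture per animal and age, so differences between animals and between cultures of 1 animal cannot be told apart. All cultures had been frozen and were revived together, and the labels give no batch. Markers of the fibroblast could not be checked, since the files used here hold methylation and no RNA values.

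A CpG was chosen when it lay on an autosome, had at least 10 reads in every culture, and had a standard deviation (SD) of the methylation ratio of at least 0.15 over the 6 cultures of 1 age and at most 0.05 over the 6 of the other. The methylation ratio is the share of reads with a methylated cytosine, and each strand of a CpG is a position of its own. Of 838705 positions, 265107 could be chosen, and 548 were. The larger spread was in the old cultures at 274 of them (0.103% of the positions that could be chosen) and in the young cultures at 274 (0.103%). These SDs chose the CpGs, so they are given as a description and without a test.

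DNA methylation at CpGs is written by DNA methyltransferases and copied to the new strand when a cell divides, while TET enzymes oxidise it. In fibroblasts most CpG islands at promoters stay unmethylated, and most other CpGs are highly methylated. Copying errors and growth from few cells can leave cultures of the same cell type with different levels at the same CpG, a change often called epigenetic drift. Because the 2 strands of a CpG usually carry the same mark, the opposite strand gives a further reading of the same site from other reads.

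The largest gap between the SDs of the 2 ages was at a CpG on the + strand at chr6:18333271 (bosTau8), between listed sites annotated to LEF1, a transcription factor of Wnt signalling. Its ratio ran from 12% to 83% in the young cultures, with a median of 43.5%, and from 8% to 20% in the old cultures, with a median of 10%. Cultures 1A and 5A stood at 80% and 83%, cultures 2A and 4A at 12%, and all 6 old cultures were at 20% or below. The SD was 31.2 points in the young and 4.50 points in the old cultures (n = 6 each), from 10 to 24 reads per culture.

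Among the CpGs with the larger spread in old cultures, the gap was largest at chr26:21503435 on the + strand. Here the young cultures lay between 73% and 80% with a median of 77.5%, and the old ones between 20% (3B) and 100% (6B) with a median of 52.5%. The means were 76.8% ± 3.54 points and 55.0% ± 27.2 points (SD, n = 6). The old cultures thus lay on both sides of the young range.

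**Figure D1:**
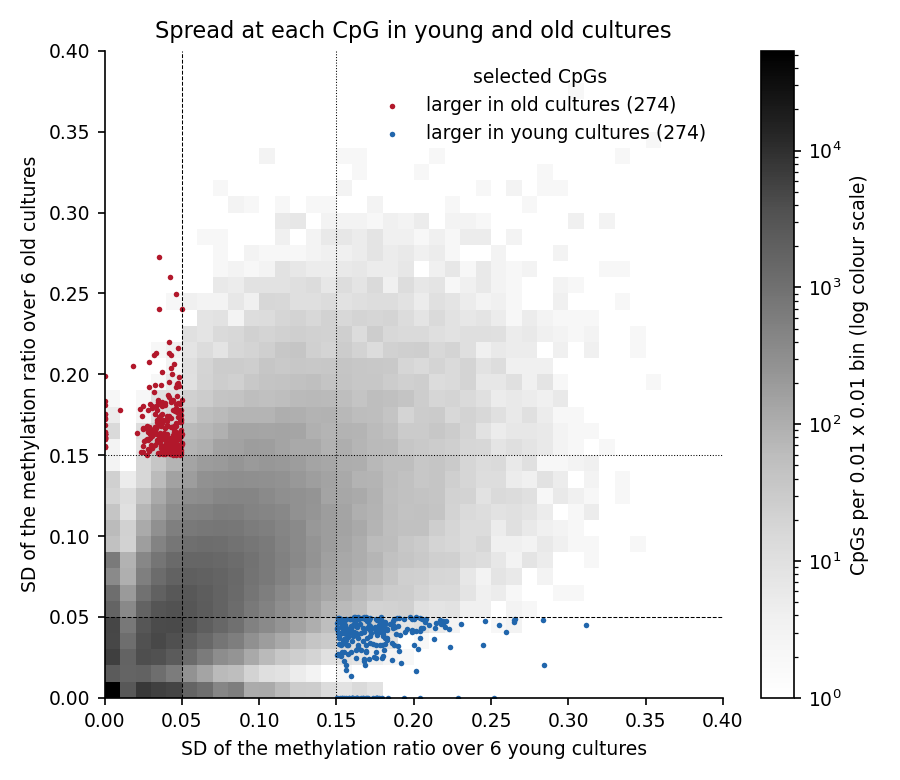
Each axis gives the SD of the methylation ratio over the 6 cultures of 1 age, and the grey shade gives the number of CpGs per bin on a log colour scale. Dashed lines mark 0.05 and dotted lines 0.15, and the 274 CpGs larger in old (red) and the 274 larger in young cultures (blue) fill the corners next to the axes.

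Few CpGs with a large spread at 1 age had a small spread at the other. The SD was at least 0.15 at 8670 positions (3.27%) in the young and at 8794 (3.32%) in the old cultures, and it was at most 0.05 at 62.4% and 60.1% of positions. At 3369 positions it was large at both ages, which is 38.9% of those large in the young and 38.3% of those large in the old cultures. The chosen CpGs were 3.16% of the positions large in the young and 3.12% of those large in the old cultures. The thresholds did not separate distinct sets of CpGs. For the larger spread in old cultures, the closest values inside the limit of the large SD were 0.15002, 0.1503 and 0.15039, and the closest outside it were 0.14972, 0.14977 and 0.14977. For the larger spread in young cultures, they were 0.15012, 0.1502 and 0.15026 inside, and 0.14999, 0.14986 and 0.14986 outside. At the small SD, the values stood at 0.04997 inside and 0.05007 outside in both directions. Another 139 and 111 positions lay within 0.01 below the limit of the large SD while meeting that of the small SD.

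The change in spread was tested with limma on the absolute deviation of each culture from the mean of its age, with the animal as a block. The fit held 212238 of the 265107 positions. The other 52869 had no deviation in any culture, were left out of the fit and count as not called. After Benjamini-Hochberg adjustment limma called 0 positions at a threshold of 0.05, with 0.138 as the lowest adjusted P. At an unadjusted P below 0.05 there were 36634 positions, 18760 with more spread in old and 17874 with more spread in young cultures. They were 17.3% of those fitted and are not read as calls. The 6 deviations from a shared mean are not independent of each other. The unadjusted count from limma also changed with the fit. It was 9270 of 212238 with deviations from the median, and 8884 of 121291 for positions with a mean ratio between 10% and 90%. It was 49299 with the animal left out and 57542 on an arcsine square root scale. The reason for these differences was not tested. In the main fit no single position, chosen or not, was shown to change its spread. The call depended on the fit: with the animal left out of the model 6796 positions passed adjustment, and on an arcsine square root scale 10507 did, while deviations from the median in place of the mean gave 0. The median difference in absolute deviation was 0.00111 (old minus young).

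The ages were then exchanged within animals, which keeps each pair of cultures together and gives 32 arrangements, the labelled one included. The rule was met by 548 CpGs with the ages as labelled. In the other 31 arrangements it was met by 468 to 548 CpGs, with a median of 511. One arrangement, with the ages of animal 3 exchanged, also gave 548, and the other 30 gave fewer. The 2 directions differed by 0 CpGs with the ages as labelled and by 3 to 114 CpGs, with a median of 43, in the others. Counts of 1 direction ran from 177 to 304 with a median of 254 over the exchanged arrangements, and both labelled counts of 274 lay within that range. The counts are given as a description, with no p-value. Leaving out both cultures of 1 animal raised them, to between 408 and 509 CpGs for the old and between 413 and 477 for the young direction.

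**Figure D2:**
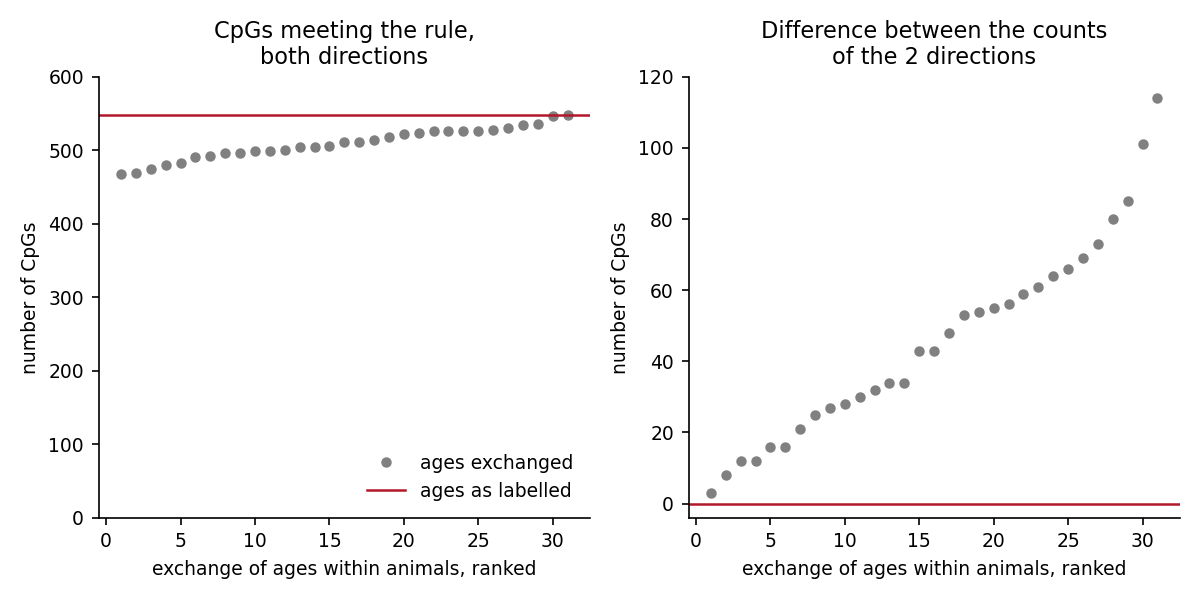
The left panel ranks the number of CpGs that met the rule in the 31 arrangements with exchanged ages (grey points, 468 to 548), and the red line gives the labelled ages (548). The right panel does the same for the difference between the counts of the 2 directions (3 to 114), where the labelled ages stand at 0.

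The 2 directions had the same number of CpGs but lay at different methylation levels. Where the old cultures varied, the mean of the young cultures was between 50% and 90% at 131 CpGs, below 10% at 72, between 10% and 50% at 52, and at least 90% at 19. Where the young cultures varied, the old cultures were below 10% at 139 CpGs, between 10% and 50% at 64, between 50% and 90% at 61, and at least 90% at 10. The median level at the age with the small spread was 53.8% in the first direction and 8.83% in the second. Over all positions that could be chosen, the median level was 9.67% in young and 8.5% in old cultures. Of these 265107 positions, 133521 had a mean level below 10%, here by a level not taken from the age with the small spread alone. By this level, 104 CpGs with varying young and 61 with varying old cultures were below 10%, not the 139 and 72 given above. CpGs with varying young cultures were 0.0779% of the positions there and 0.783% of those from 10% to 20%. CpGs with varying old cultures were 0.0457% and 0.340%. The directions differed by 67 CpGs in the class below 10%, against 1 to 78 (median 23) in the other 31 arrangements of the ages, of which 1 was as large. In the class from 50% to 90% they differed by 70 CpGs, against 1 to 85 (median 32), of which 3 were as large. Only these classes, which had the largest gaps between the directions, were counted under the exchanges. The counts are a description, with no p-value. The rule did not use levels, but they come from the same ratios as the SDs and they bound the SD: a mean near 0% or 100% leaves room to vary on 1 side.

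The direction of the shift in mean followed from the rule at the ends of the scale, where the ratios have room on 1 side, and is given as a description. Among CpGs below 10% at the age with the small spread, at all 72 with varying old cultures the old mean was higher, with a median shift of 8.25 points, and at all 139 with varying young cultures the young mean was higher, with a median shift of 10.3 points. Where the level was at least 90%, all 19 and 10 CpGs were lower at the age with the large spread, by a median of -9.00 and -10.3 points. At 50% to 90% the median shifts were -2.50 points (131 CpGs) and -3.17 points (61 CpGs).

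**Figure D3:**
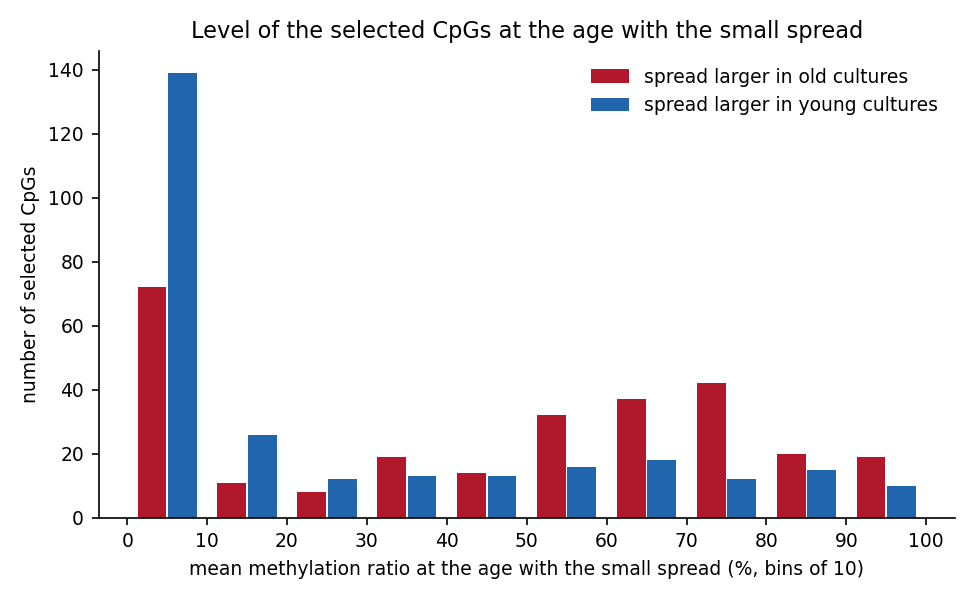
Bars give the number of chosen CpGs by their mean methylation ratio (%) at the age with the small spread, in bins of 10 points. CpGs with varying young cultures (blue) are most frequent below 10% (139 CpGs). By a mean level not taken from that age alone, 133521 of all 265107 positions that could be chosen lie below 10%. Of the CpGs with varying young cultures, 104 do so by that level. Those with varying old cultures (red) have a second group between 50% and 90% (131 CpGs).

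Means were compared with the paired test of the study at each position, at an unadjusted P below 0.05. A call also needed means at least 0.10 apart, a limit read from the deposited p-values and not given in the methods. With varying old cultures, 5 of the 274 were called, all higher in old cultures, which is 1.82%. Of the 274 with varying young cultures, 30 were called (10.9%), 26 higher in young and 4 higher in old cultures. Over all positions that could be chosen, 0.702% were called higher in young and 0.339% higher in old cultures. The rule used this contrast, so nothing is read from these shares. Without regard to a call, the mean was higher in young cultures at 204 CpGs with varying young cultures and at 123 with varying old cultures. The 6 young and 6 old ratios did not overlap at 2 chosen CpGs, both with varying young cultures, and at 0.0977% of all positions that could be chosen.

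The gene annotation came from a list of the authors that holds only CpGs with a mean difference, so it covered 5 CpGs with varying old and 30 with varying young cultures. Among these, 1 gene was annotated for the first direction and 8 for the second. All 9 were therefore chosen for a difference in mean as well as in spread, and the list was made from these samples.

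FES, a cytoplasmic tyrosine kinase best known from myeloid cells, held the chosen CpG with the largest gap among the annotated ones, at chr21:22204113 on the - strand, in a region listed as both promoter and exon. Its ratio ran from 7% to 67% with a median of 37% in the young cultures, and from 0% to 14% with a median of 7.5% in the old cultures. The mean was 36.3% ± 24.6 points in young and 7.67% ± 4.76 points in old cultures (SD, n = 6). The young cultures split into 3 between 50% and 67% (1A, 3A and 6A) and 3 at or below 24%.

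Of the other annotated genes with varying young cultures, LBX1, a homeobox factor of muscle precursors and spinal cord neurons, was 0% in all 6 old cultures at chr26:21897644 on the - strand, a promoter CpG in a CpG island. The young cultures there ran from 0% (4A) to 52% (5A) with a median of 15.5%, which gave a mean of 20.3% ± 18.4 points. SALL1, a zinc finger factor needed for kidney development, ran from 0% to 50% (median 29%) in the young cultures at an intronic CpG in a CpG island, chr18:19653220 on the - strand. Its old cultures were at 0% except 6B at 12%.

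PRDM1, a repressor known for its part in plasma cell formation, lay at the locus with the most chosen CpGs. There were 5 of them on the + strand between chr9:44360053 and chr9:44360080, of which 1 was listed, in an exon and a CpG island. That CpG, chr9:44360065, ran from 0% to 38% (median 29%) in the young cultures and from 0% to 8% (median 0%) in the old ones. At the other 4 CpGs cultures 1A and 4A were the highest, with 33% to 67% in 1A and 31% to 38% in 4A, while 5A was at 0%. The 5 CpGs were read largely from the same fragments, so they are not 5 separate readings. On the opposite strand no partner reached 10 reads in every culture.

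**Figure D4:**
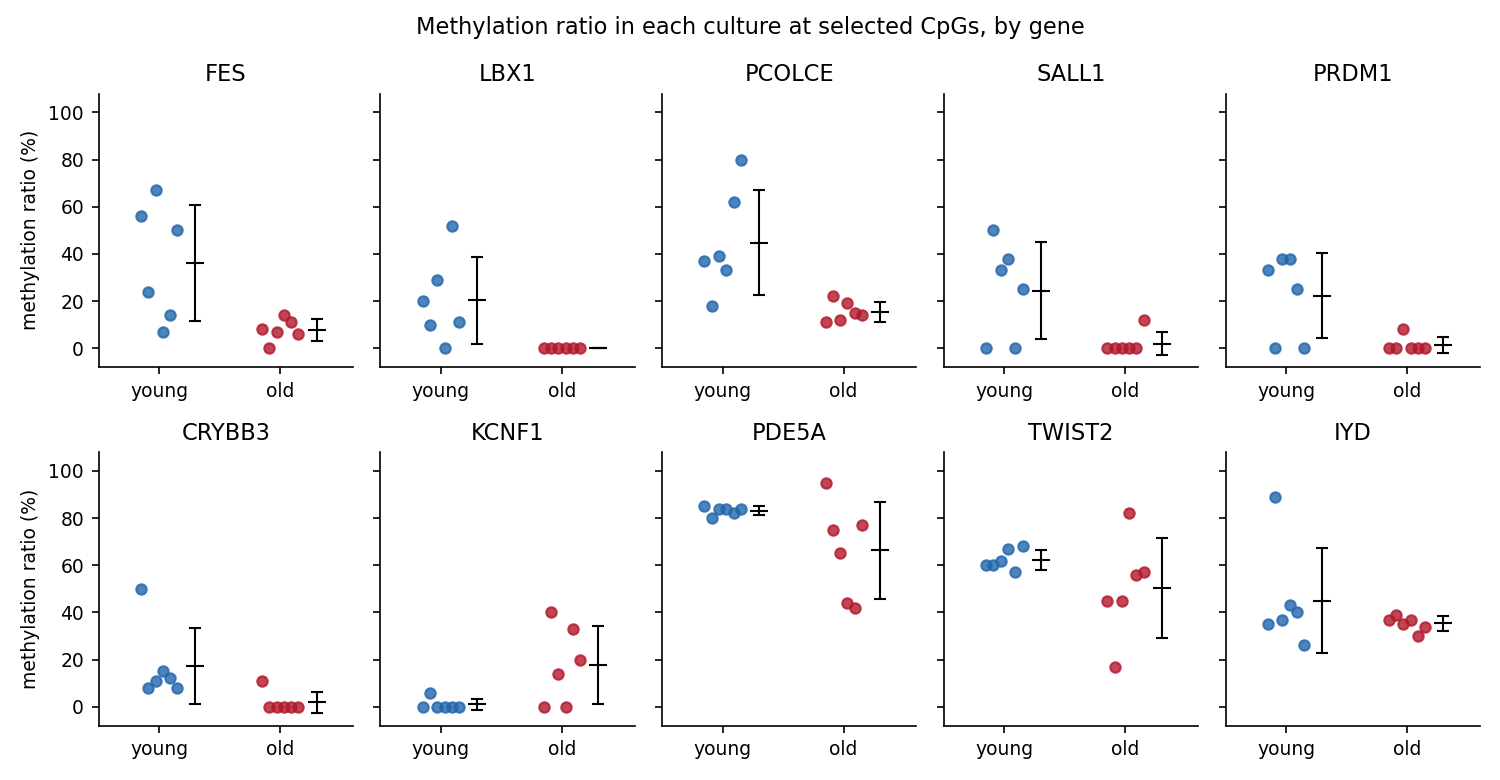
Points give the methylation ratio (%) of each of the 6 young (blue) and 6 old (red) cultures at 1 chosen CpG per gene, with the mean and SD as black bars. KCNF1 and the genes before it are annotated in the authors' list, and PDE5A, TWIST2 and IYD are named only because listed CpGs of the gene lie on both sides. At FES the young cultures run from 7% to 67% and the old from 0% to 14%, and at PDE5A the young from 80% to 85% and the old from 42% to 95%.

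PCOLCE, which speeds the trimming of procollagen, had an intronic CpG in a CpG island at chr25:36492226 on the + strand. It ran from 18% to 80% (median 38%) in young and from 11% to 22% (median 14.5%) in old cultures. The mean was 44.8% ± 22.3 points against 15.5% ± 4.23 points. ACOX2, a peroxisomal oxidase of branched fatty acids and bile acid precursors, had 2 chosen CpGs on opposite strands. At the listed one, chr22:43379578 on the - strand, the young cultures ran from 12% to 55% (median 23.5%) and the old from 0% to 6% (median 0%), with no overlap. At the other, chr22:43379660 on the + strand, the young cultures ran from 6% to 83% (median 22.5%) and the old from 0% to 11% (median 0%).

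In CRYBB3, a crystallin of the lens, 1 culture made the spread. At chr17:67541250 on the - strand, culture 1A was at 50% and the other 5 young cultures at 8% to 15%, so that the SD was 16.2 points with 1A and 2.95 points without it. The promoter CpG of MIR193A, a microRNA gene, ran from 7% to 45% (median 17%) in the young and from 0% to 8% (median 3%) in the old cultures at chr19:18823414 on the + strand.

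KCNF1, a subunit of voltage-gated potassium channels, was the 1 annotated gene with varying old cultures. Its CpG at chr11:86761055 on the - strand, in a CpG island listed as promoter and exon, was 0% in 5 young cultures and 6% in 2A. The old cultures ran from 0% (1B and 4B) to 40% (2B) with a median of 17%. The means were 1.00% ± 2.45 points and 17.8% ± 16.6 points (SD, n = 6), from 10 to 20 reads per culture.

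Lists of genes by function, which had been drawn up for this tissue, held few listed CpGs with enough reads. The 6 genes the study selected had 13 such CpGs, of which 1 was chosen, the one in FES with varying young cultures. Extracellular matrix and adhesion (56 genes, 4 CpGs), developmental transcription factors (86 genes, 16 CpGs), imprinted genes (30 genes, 1 CpG), innate immunity (67 genes, 3 CpGs), WNT, TGF-beta, FGF and NOTCH signalling (67 genes, 14 CpGs) and chromatin (42 genes, 3 CpGs) had 0 chosen CpGs. LBX1, SALL1, PRDM1 and PCOLCE were not on these lists. Of the 2723 listed CpGs with enough reads, 5 and 30 were chosen, so 0 among so few is not read as a result. Chosen CpGs outside the list, such as the one placed at IGF2 below, were not counted here.

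CpGs outside that list were placed by whether listed CpGs on both sides, no more than 100000 bp apart, were annotated to 1 gene. This gave a gene for 24 CpGs with varying old cultures (8.92%) and 21 with varying young cultures (8.61%), against 4.32% of all positions outside the list that could be chosen. The 33 genes were found after the values had been seen, and a listed promoter reaches beyond the gene itself. LRGUK, PDE5A, NSG1 and PRODH held CpGs of both directions. PDE5A, which breaks down cyclic GMP, had 3 with varying old and 1 with varying young cultures, and LRGUK had 2 of each.

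At PDE5A the largest gap was at chr6:7001781 on the - strand. The young cultures there ran from 80% to 85% (median 84%) and the old from 42% (5B) to 95% (1B) with a median of 70%. A neighbouring CpG on that strand, chr6:7001774, also met the rule, with 58% in 5B but 94% in 4B, which stood at 44% at the first. On the opposite strand the SD was 0.0761 and 0.0589 in old against 0.0489 and 0.0542 in young cultures at these 2 CpGs, with at least 28 reads in every culture.

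Between listed CpGs of TWIST2, a factor of dermal mesenchyme, the - strand CpG at chr3:118676893 ran from 57% to 68% (median 61%) in young and from 17% to 82% (median 50.5%) in old cultures. Culture 2B was lowest there. The opposite strand also varied more in old cultures, with an SD of 16.6 against 7.36 points, but its lowest culture was 6B at 29%, and 2B was at 78%. A CpG at FRZB, a secreted Wnt antagonist, chr2:13725354, was at most 9% in young cultures and 0% (3B) to 43% (6B) in old cultures.

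Young cultures varied at the CpGs placed in NKX3-2 and IGF2. At NKX3-2, a factor of the axial skeleton, chr6:113625435 ran from 0% to 50% (median 28%) in young and from 7% to 13% (median 9%) in old cultures. At IGF2, an imprinted growth factor, chr29:50054665 ran from 0% to 43% (median 10%) in young and from 0% to 9% (median 3%) in old cultures. The young cultures that were high were 1A and 4A at IGF2, and 1A and 4A at NKX3-2 with 38% and 50%.

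ATP8B1, a lipid flippase of the cell membrane, held the locus with the most CpGs with varying old cultures. At the 3 CpGs on the + strand between chr24:57380532 and chr24:57380551, the young cultures were at most 8%. Cultures 1B and 2B stood at 25% to 40%, and the other 4 old cultures at 14% or below. The opposite strand had as few as 8 reads, and there 2B was at 75% to 100% while 1B was at 5%. So 2B was high on both strands and 1B on 1 strand only.

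CpGs with no gene annotation made up most of those with the largest gaps. At chr10:103326435 on the + strand, 1A was at 0% and the other young cultures at 56% to 82%, while all old cultures were at 75% to 80%. At chr11:104436449 on the + strand, 4A was at 67%, the other young cultures at or below 19%, and all 6 old cultures at 0%. On the opposite strands of these, 1A was at 71%, above 4 of the other young cultures, and 4A was at 0%, so neither culture stood apart in the same way. At chr2:135423858 on the + strand, 2A was at 71% and the other young cultures at or below 18%, and the old cultures at 14% to 27%. Here the opposite strand was also highest in 2A, at 55%, with a young SD of 23.0 points. At chr16:48115539 the young cultures were spread from 12% to 83% (median 42.5%) and the old stood at 33% to 44% (median 38%).

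With varying old cultures, chr14:3711331 was at 100% in all young cultures and in 4 old ones, with 67% in 1B and 57% in 2B. At chr25:42162315 it was the reverse, with 0% in all young cultures and in 4 old ones, 30% in 1B and 40% in 3B. At chr13:18259479 culture 5B was at 69% and the other old cultures at 8% to 19%. On the opposite strand of that CpG, 5B was at 0% and 4B at 64%, so the strands named different cultures. At chr11:100015844 on the - strand the young cultures ran from 50% to 62% (median 56%) and the old from 25% to 100% (median 65.5%). At chr1:124945389 the young cultures ran from 66% to 78% (median 74%), and 2B at 25% was the lowest of the old ones, which reached 88% (median 76%).

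At 3 loci, CpGs at most 100 bp apart varied in opposite directions. At chr18:56041347 on the + strand the old cultures were all at 0% and the young ran from 0% to 60% (1A), while nearby on the - strand, at chr18:56041358, the young ran from 8% to 20% and the old from 0% to 60% (3B). At chr5:97146321 the old cultures ran from 40% to 82% and the young from 71% to 78%, and at chr5:97146335 the young ran from 24% to 71% and the old from 27% to 38%. At chr28:39318475 and chr28:39318493 the SDs were 15.3 against 2.61 points (young against old) and 3.98 against 16.0 points.

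Ratios of the CpGs with the deepest reads carry less counting error, though reads are not independent molecules. Only 4 chosen CpGs had at least 40 reads in every culture. At chr9:88645957 on the - strand, between listed CpGs of IYD, the enzyme that recycles iodide in the thyroid, culture 2A was at 89% and the other 11 cultures at 26% to 43%, with 71 to 352 reads. The opposite strand, with as few as 13 reads, stood at 79% to 100% in all cultures, so the strands differed in level at both ages. Its SD was 0.0598 in young and 0.0706 in old cultures. At chr5:114235882 the young cultures ran from 27% (2A) to 78% (4A), with a median of 57.5%, and the old from 59% to 67%, with 71 to 232 reads. Its opposite strand had an SD of 0.134 in young and 0.0859 in old cultures, with at least 20 reads. At chr2:100631361 the young cultures ran from 52% to 62% and the old from 34% (4B and 6B) to 71% (3B), with 57 to 111 reads. At chr7:71935023, 4B was at 53% and the other old cultures at 77% to 97%, against 84% to 92% in the young cultures, with 43 to 119 reads. In these last 2, the opposite strand had an SD of 0.0679 and 0.0818 in old against 0.0509 and 0.0656 in young cultures, with at least 104 and 53 reads.

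The 2 directions followed coverage differently. CpGs with varying old cultures were 0.110%, 0.133%, 0.131% and 0.149% of positions with a mean coverage from 10, 15, 20 and 30 reads up to the next step, and 0.0122% of positions with 50 reads or more. CpGs with varying young cultures were 0.110%, 0.208%, 0.125% and 0.0588% of the same classes, and 0.00608% of the deepest. Averaged over the 12 cultures, the coverage of the CpGs had a median of 22.9 reads with varying old and 20.8 reads with varying young cultures, against 24.8 over all positions that could be chosen. Counting alone gives a ratio an SD that follows from its level and reads. At the age with the large spread, the median variance was 3.38 times (old) and 4.10 times (young) the variance of counting, and 1.33 and 1.40 times over all positions. At the age with the small spread it was 0.268 and 0.323 times. The small SD was below that of counting at 201 (73.4%) and 156 (56.9%) of the CpGs. It was below at all 52 (old) and 64 (young) CpGs with a level of 10 to 50% at that age. The same held for all 131 and 61 at 50 to 90%. Below 10% it was so at 12 of 72 and 29 of 139, and at 90% or above at 6 of 19 and 2 of 10. The rule chose the CpGs by these SDs, so their variance ratios and these counts are a description, and nothing is read from them. The part of counting error in the choice of these CpGs was not tested.

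The opposite strand of the same CpG was read from other fragments and did not enter the rule for the member. It had at least 10 reads in every culture at 120 CpGs with varying old and 99 with varying young cultures. It varied more at the same age at 62 of the 120 (51.7%, Wilson 95% interval 42.8 to 60.4) and at 47 of the 99 (47.5%, 37.9 to 57.2). Its median SD was 0.0698 at the age with the large spread and 0.0652 at the other for the first direction, and 0.0758 and 0.0742 for the second. Equal SDs count as not following, and there were 6 and 2 of them. Over all 128868 positions with such a partner, the partner varied more in old cultures at 53203 and in young at 48075. At 27590 its SDs were equal, so 50% is not the background share. The intervals treat CpGs of the same 12 cultures as independent and are not read as a test. With partners of at least 5 reads the young direction reached 113 of 198 (57.1%, 50.1 to 63.8) and the old direction 94 of 180 (52.2%, 45.0 to 59.4). Its SD reached 0.15 at 10 CpGs in each direction, and both strands were chosen at 1 CpG, chr20:4820290 and chr20:4820291, with varying old cultures. There the old cultures ran from 0% to 43% on the + strand with 4B highest, and from 0% to 46% on the - strand with 3B highest, 4B at 42% and 6B at 41%.

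The culture that stood apart at a CpG was followed to the opposite strand as well. It lay a median of 28.7 points (old) and 28.8 points (young) from the mean of its age at the chosen CpG. On the opposite strand it lay a median of 0 and 1.5 points from the mean toward the same side. It was on the same side at 59 of the 120 CpGs (49.2%, 40.4 to 58.0) and at 56 of the 99 (56.6%, 46.7 to 65.9). At the 780 partners of positions large at both ages, the farthest culture was on the same side in 55.5% (old) and 67.2% (young), and their median SD was 0.133 and 0.134.

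**Figure D5:**
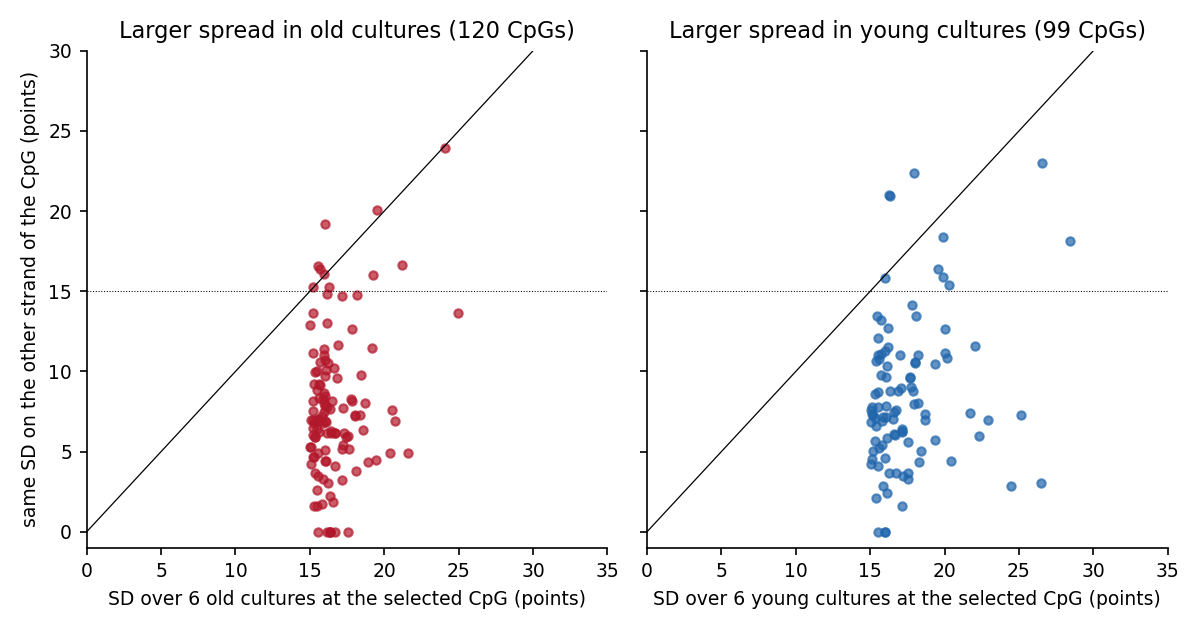
Each point is a chosen CpG whose opposite strand had at least 10 reads in every culture, with its SD over the 6 cultures of the varying age (in percentage points) against the same SD on the opposite strand. Most of the 120 points (old) and 99 points (young) lie below the diagonal and below the dotted line at 15 points.

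Nearby CpGs on the same strand, which share reads with the member, followed it somewhat more often than those on the opposite strand. Within 100 bp, 693 of 1202 (57.7%) varied more in old cultures beside members with varying old cultures, and 512 of 872 (58.7%) more in young cultures beside members with varying young cultures. On the opposite strand within 100 bp the shares were 49.5% of 816 and 53.3% of 550. Neighbours of 1 member are not independent, so no interval is given. The same share beside all positions that could be chosen was not counted, so nothing is read from these shares about the chosen CpGs.

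The spread came from many cultures. Among old cultures, 2B was the farthest from the mean of its age at 66 CpGs, 5B at 56, 3B and 4B at 44 each, 6B at 39 and 1B at 25. Among young cultures, 5A was farthest at 55, 2A at 52, 1A at 46, 4A at 45, 3A at 41 and 6A at 35. Culture 2B also had the lowest median coverage, 20 reads over all positions that could be chosen, and 1B the highest, 33 reads. Coverage also differed between the ages. The median was 26 to 30 reads in the young cultures, but 23 in 3B, 24 in 4B and 5B, and 28 in 6B. The part of coverage in these counts, and in the 2 directions, was not tested. The farthest culture was above the mean at 152 of the 274 CpGs in old and at 195 of the 274 in young cultures. Without it, the SD of the other 5 cultures was still at least 0.15 at 24 and 33 CpGs, and it was at most 0.05 at 36 and 39. The rest lay between, with a median SD of 0.106 and 0.110 over all CpGs of each direction.

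The chosen CpGs came from all 29 autosomes, but some lay in the same regions. Several were between chr3:82710131 and chr3:82906094, and several between chr7:71935023 and chr7:71967348. The CpGs at chr23:24362939 and chr23:24363875 had the same 2 SDs (0.167 and 0.0331). All of these lie more than 100 bp apart and count as separate loci below. Whether they are separate readings was not tested. With CpGs at most 100 bp apart taken as 1 locus there were 265 loci with varying old and 260 with varying young cultures, and 8 and 9 of them held more than 1 CpG of that direction. All 29 autosomes held CpGs of both directions, from 0.0638% to 0.195% of the positions of a chromosome for the first and from 0.0325% to 0.183% for the second. The median number of positions within 100 bp was 12 and 10, against 14 over all positions that could be chosen. All 12 read numbers were even at 20.8% and 28.1% of the chosen CpGs, against 19.6%. The authors counted both mates of overlapping read pairs, and the part of this in the counts was not tested for single CpGs. With the coverage of such positions halved before the minimum was applied, 217 and 197 CpGs met the rule.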

How the data were processed

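RRBS libraries of 12 cultures were made from bisulfite-converted DNA digested with MspI per the labels, and with TaqαI and MspI in turn per the methods. Per the labels and the methods, reads were checked with FastQC 0.11.1, trimmed with Trim Galore 0.3.7 and aligned with Bismark 0.13.1 to bosTau8, keeping uniquely mapped reads. The authors deposited, for each position and strand with at least 5 reads in every culture, the methylation ratio as a fraction with 2 decimals, and the coverage as a count of reads with no normalization. Their p-values and differences were not used, apart from the limit on differences given for the means. A deposited list of CpGs with a mean difference gave the gene annotation, with promoters as the study defined them.

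Here the SD (n - 1) of the ratios was computed per age. Coverage summed over the 265107 positions was from 12889604 to 21518493 reads per culture. Absolute deviations were tested with limma 3.58.1 and Benjamini-Hochberg adjustment. The per-site paired test of the study was recomputed for means, with a minimum difference of 0.10 that the deposited p-values apply. The pairing was taken from the sample numbers and the methods. Deviations of the cultures of 1 animal correlated across CpGs between -6.09e-05 and 0.185, and those of different animals between -0.102 and 0.0651. The young cultures of animals 2 and 6 correlated no less with an old culture of another animal (0.02683 and 0.0329) than with their own (0.02681 and -6.09e-05). For animal 3 the values were 0.0651 and 0.0654. Scripts ran in Python 3.11.15 (scipy 1.17.1, pandas 2.3.3, numpy 2.4.6), with figures drawn in matplotlib 3.10.9.

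The rule, the gene lists and the named CpGs were chosen with earlier results of these data known. Named were, per direction, the 8 CpGs with the largest SD gap (1 per locus), the annotated genes (up to 12), the 4 loci with the most CpGs, up to 3 per gene list and the 3 values nearest each limit. The deepest CpGs, the loci with both directions, the CpG chosen on both strands and those between listed CpGs of 1 gene were chosen after their values were seen. Positions are 1-based. Intervals cover counting error only, and reads without molecular identifiers are not independent molecules. Alternatives were other coverage minimums, thresholds and measures of spread, thinned, merged or recomputed ratios, and cultures left out. The sequence around the CpGs was not analysed here.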

Additional observations from a re-analysis of the deposited data

Results flagged for a closer look

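Within the 6 cultures of 1 age, a culture was picked out where its gap to the nearest other culture, as a share of the whole range, was above Dixon's 95% critical value for 6 samples. For normally distributed values chance flags about 1 in 20 groups, which is not the background for these ratios. At the age with the small spread, 14.2% of all chosen CpGs with varying old cultures were flagged, and 24.1% of those with varying young cultures. The named CpGs gave 27 such values in 174 groups tested. At the varying age they were chosen for their spread, so no rate is read from them.

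At the varying age, 12 values stood apart. Among old cultures these were 5B with 69% at chr13:18259479, 3B with 43% at chr25:19141011 and with 43% at chr25:19141021, and 3B with 40% at chr5:97146321, where the other old cultures were at 70% to 82%. Among young cultures they were 1A with 0% at chr10:103326435, 4A with 67% at chr11:104436449, 2A with 71% at chr2:135423858, 1A with 50% at CRYBB3, 2A with 89% at IYD, and 6A with 45% at each of the 3 CpGs at chr21:34957212, chr21:34957219 and chr21:34957221.

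At the age with the small spread, 15 values stood apart. At 12 of them the other 5 cultures were at 0%, where any value above 0% is picked out. Those 12 were 2A with 6% at KCNF1, 5A with 7% at chr24:57380551, 4A with 7% at chr25:19141021, 4B with 10% at chr9:44360076, 6B with 12% at SALL1, 3B with 8% at chr9:44360065 and with 8% at chr9:44360058, 1B with 6% at ACOX2 and with 11% at CRYBB3, 1B with 5% at chr21:34957212, 6B with 6% at chr7:97436798 and 4B with 11% at chr11:104436446. The others were 4B with 20% at the CpG by LEF1, 2B with 11% at chr9:44360053 and 5B with 27% at chr5:97146335.

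Among summaries per culture, the median coverage of the CpGs with varying young cultures was 22 reads in 2A and 20 reads in each of the other 5.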

How the results depend on the processing

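The counts of both directions (274 and 274, old first) were set by the thresholds and the reads. They were 1820 and 1931 with at least 5 reads, 20 and 12 with at least 20 reads, and 540 and 707 with every culture thinned to 10 reads. They were 17 and 40 with SD thresholds of 0.20 and 0.05, 54 and 70 with 0.15 and 0.03, and 2803 and 2089 with 0.10 and 0.05. With the median absolute deviation in place of the SD they were 925 and 905. They stayed within 1.5 times of 274 with ratios from whole reads (275 and 260), halved even coverage (217 and 197), merged strands (202 and 241), the X chromosome (292 and 281), positions with a mean coverage above 100 reads left out (273 and 272) and 1 count per locus (265 and 260). Leaving out cultures gave from 280 to 509 CpGs for the old and from 293 to 477 for the young direction. The old direction rose by over 1.5 times without animal 1 (509), 3 (474), 4 (489), 5 (467) or 6 (486), or without culture 1A (413), 2A (433) or 5A (417). The young direction rose by that much without any 1 animal (from 413 to 477) and without 2B (413), 3B (418), 4B (422) or 5B (436).

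The model of the spread used the animals as pairs. It called 0 positions after adjustment, also without any 1 animal, with adjusted P values from limma of at least 0.0673 over the alternatives that called 0. Without the replicate block it called 6796 (2997 higher in old), on the arcsine square root scale 10507 (4707 higher in old), and with no adjustment 36634, a count that is not read as calls. The per-site test of the mean called 2761 positions (67.4% higher in young), 3134 with no replicate block, 13504 with at least 5 reads, 357 with at least 20 reads (59.4%), 8290 with no minimum difference (56.3%), and 2642 to 2863 without 1 animal. Neighbours within 50 bp on the same strand followed the member in 58.8% (old) and 62.5% (young), against 54.4% and 56.6% within 100 bp on both strands. The shares on the opposite strand stayed within their main intervals. They were 52.2% and 57.1% with at least 5 reads, and 47.1% and 39.2% with even coverage left out. With a mean of at least 30 reads, an alternative chosen after seeing the data, they were 42.9% and 50.0%. With 10 to 30 reads per culture, an SD of a few points can lie below what counting alone gives. It did so at the age with the small spread for 201 of the 274 CpGs with varying old cultures. The same held for 156 of the 274 with varying young cultures. The median variance at that age was 0.268 and 0.323 times that of counting. The rule chose the CpGs by these SDs, so these values are a description. The causes of the changes under the alternatives were not tested.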
